A study of Mus musculus with 21 samples.

Results

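Transcript levels of 9 genes that are read in immunology as markers of naive T cells and of tissue-resident memory T cells were followed through skin and inguinal lymph nodes of *Ifnk* TG and WT mice. The genes are *Tcf7*, *Klf2*, *S1pr1*, *Il7r*, *Satb1*, *Bach2*, *Cd44*, *Cd69* and *Itgae*. They were chosen by gene name, and each of the 9 was found once in both count tables, which hold 55487 genes. *Ifnk* TG mice carry *Ifnk*, a type I interferon gene, under the keratin 14 promoter, which drives it in keratinocytes, on a BALB/c background, and WT mice are BALB/c. Skin came from 12-month-old mice and gave 3 WT libraries, 2 *Ifnk* TG nonlesional (NL) libraries and 4 *Ifnk* TG lesional (L) libraries. All skin libraries are labelled as without treatment, and WT skin is labelled as nonlesional. Inguinal lymph nodes gave 3 libraries in each of 4 groups, namely WT and *Ifnk* TG mice left without treatment (NoTx) or given UVB (UVTx) at 250 mJ/cm2 on 3 days a week over 2 weeks, with harvest 2 weeks later. Nodes were passed through a cell strainer before RNA was isolated. The age of the lymph node mice and the sex, body site and mouse behind each library are not in the labels. A figure legend of the study counts the UVB-treated nodes as mice, but nothing in the labels says that replicates are separate mice, and for skin p-values measure the spread between libraries, which may be technical.

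A naive T cell circulates between blood and lymph nodes in a quiescent state that is kept by transcription factors, survives on IL-7, and leaves a node along a gradient of sphingosine 1-phosphate. After activation these programs are dimmed, CD44 becomes abundant, and cells that settle in skin keep CD69 and often CD103 at their surface. Several of the same genes are also used by cells other than T cells, such as keratinocytes, endothelium, B cells and dendritic cells, and RNA from a whole tissue sums over all of them.

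Among the members, 4 encode nuclear proteins. *Tcf7* (chromosome 11, 52252371 to 52283014, GRCm38) encodes TCF-1, which maintains naive and stem-like memory T cells and is a nuclear partner of β-catenin. *Satb1* (chromosome 17, 51736187 to 51833290) encodes a chromatin organizer of thymocytes and naive T cells that also acts in epidermal keratinocytes. *Bach2* (chromosome 4, 32238804 to 32586108) encodes a repressor that restrains effector differentiation of T and B cells. *Klf2* (chromosome 8, 72319033 to 72321656) encodes a zinc finger factor of T cell quiescence, which switches on *S1pr1* and is also a flow-responsive factor of endothelium. Exons of *Satb1* overlap 2 unclassified transcripts and exons of *Bach2* overlap the antisense gene *Bach2os*, and whether reads were counted by strand is not given in the sources used here, so counts of these members are uncertain to that extent.

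The other 5 members encode proteins of the cell surface. *S1pr1* (chromosome 3, 115710433 to 115715072) encodes the sphingosine 1-phosphate receptor that lymphocytes need to leave lymphoid organs and that is abundant on endothelium. *Il7r* (chromosome 15, 9505788 to 9530176) encodes the α chain of the IL-7 receptor. *Cd44* (chromosome 2, 102811141 to 102901665) encodes a hyaluronan receptor found on memory T cells, myeloid cells, fibroblasts and basal keratinocytes. *Cd69* (chromosome 6, 129267325 to 129275436) encodes an activation antigen that binds S1PR1 and takes it off the surface. *Itgae* (chromosome 11, 73090583 to 73147446) encodes CD103, the αE integrin that pairs with β7, binds E-cadherin and is carried by resident memory T cells, epidermal γδ T cells and some dendritic cells.

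*Satb1* and *Cd44* differed in lesions in opposite directions, and the 250 bases before their annotated starts are shown for that reason. The windows are from RefSeq on GRCm38.p6, where 6 of the 9 members had an entry, and both are on the minus strand and written 5′ to 3′. They are chr17:51833291-51833540 and chr2:102901666-102901915. Capitals mark matches of CACCC, the core of KLF binding sites, on either strand.
Satb1: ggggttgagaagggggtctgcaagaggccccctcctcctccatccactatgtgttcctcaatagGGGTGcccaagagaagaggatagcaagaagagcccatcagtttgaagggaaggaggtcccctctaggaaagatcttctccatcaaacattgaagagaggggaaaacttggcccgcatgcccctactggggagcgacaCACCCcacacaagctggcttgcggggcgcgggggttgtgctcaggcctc
Cd44: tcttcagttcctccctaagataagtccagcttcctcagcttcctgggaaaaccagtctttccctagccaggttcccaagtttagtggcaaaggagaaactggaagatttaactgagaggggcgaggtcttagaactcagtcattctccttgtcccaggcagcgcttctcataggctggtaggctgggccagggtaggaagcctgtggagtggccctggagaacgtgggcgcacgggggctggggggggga
The printed *Satb1* window held 2 CACCC matches and the *Cd44* window held 0, and 52.0% of 32851 mouse promoter windows of this length held at least 1. RefSeq also lists other starts of *Satb1*, whose windows are not printed and held between 0 and 3 CACCC matches. CTTTGA of TCF/LEF factors, TGACTCA of AP-1, the interferon-stimulated response element and GTAAACA of FOXO factors had no match on either strand in the printed windows. Among all promoter windows 13.8%, 4.46%, 2.98% and 3.17% held them, in that order. Such matches describe letters in a window and not binding.

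The deposited counts summed to 40499078 to 56511276 per library of skin and to 27599809 to 36428435 per library of lymph node. Levels are given as CPM, a count scaled to a common library size after TMM normalization. The lowest count of any member was 28, for *Cd69* in NL skin, so each member was measured in every library. All 9 members passed the filter on low counts in both tissues. The labelled tissues carried their defining transcripts, with 10 keratinocyte genes summing to between 8904 and 24917 CPM in skin and the 5 of them that passed the filter in lymph nodes to at most 13.1 CPM there, and 18 T cell genes summing to between 4658 and 5875 CPM in lymph nodes and to between 52.4 and 153.5 CPM in skin. Among the L libraries replicate 7 stood apart, with the lowest sums of keratinocyte and T cell genes, and results that depend on it are given with and without it. In such bulk samples fewer cells of a type and less RNA per cell cannot be told apart.

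Members were far lower in skin than in lymph nodes except for *Cd44*. Per kilobase of each gene's longest coding transcript, the level of *Tcf7* in WT skin was 3.07 ± 0.158 CPM per kb (SD, n = 3) and in untreated WT nodes 423.7 ± 29.9 CPM per kb (SD, n = 3), while *Cd44* had 11.5 ± 0.177 and 19.7 ± 1.94 CPM per kb. The tissues were separate experiments and this difference was not tested. In WT skin *Klf2*, at 16.7 ± 3.63 CPM per kb, and *S1pr1*, at 13.1 ± 1.79, had the highest means, *Klf2* and *S1pr1* did not differ beyond their spread, nor did *S1pr1* and *Cd44*, and *Cd69* was the lowest at 0.593 ± 0.129. In L skin the order was led by *Cd44* at 33.5 ± 3.31 CPM per kb (SD, n = 4), followed by *Tcf7* at 10.7 ± 3.27 and *Klf2* at 10.6 ± 5.95, which overlapped. *Il7r*, *S1pr1* and *Itgae* followed with means of 4.70, 4.56 and 4.07 CPM per kb and SDs of 1.69, 1.52 and 1.51, and *Satb1*, *Cd69* and *Bach2* were lowest with means of 1.73, 1.34 and 1.14 and overlapping spreads. *Satb1*, at 5.97 ± 0.599 CPM per kb in WT skin, ranked above *Tcf7* there and below it in L skin. In lymph nodes *Tcf7* was the highest member in each of the 4 groups, with means between 361.1 and 423.7 CPM per kb, and the lowest mean was that of *Itgae* in both untreated groups and of *Bach2* in both UVB groups. *Itgae* and *Bach2* did not differ beyond their spread in the untreated groups, nor did *Bach2* and *Cd44* in either UVB group.

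Lesional skin was compared with WT skin to ask which of the naive and residence genes differ in established lesions. *Cd44*, *Tcf7*, *Itgae* and *Cd69* rose, and *Satb1* and *S1pr1* fell, so that 6 of the 9 members passed an adjusted p of 0.05 in edgeR's quasi-likelihood test. Among all 19101 genes tested, 43.1% passed, 23.0% higher and 20.2% lower. The genes of the naive list therefore went both ways, with 1 of 6 higher and 2 of 6 lower, and the 3 memory and residence members were all higher. The median log2 difference over the 9 members was 0.88, beside 0.06 over all genes tested.

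*Cd44* showed the tightest difference. It was at 195.0, 205.0, 191.1 and 161.7 CPM in the L libraries (replicates 4 to 7), at 83.5 and 92.1 CPM in the NL libraries and at 64.4, 65.8 and 63.9 CPM in the WT libraries. The lowest L library was above the highest NL library, and both NL libraries were above all 3 WT libraries. The log2 difference of L from WT skin was 1.54 ± 0.11 (SE, adjusted p = 6.03e-05), a 2.91-fold higher level, and that of L from NL skin was 1.10 ± 0.12 (adjusted p = 0.00099). It passed the threshold in every one of 8 other settings and without any of the 9 libraries in both comparisons.

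*Tcf7* was at 18.1, 27.4, 22.9 and 37.1 CPM in L skin, at 7.87 and 10.7 CPM in NL skin and at 8.01, 7.48 and 7.25 CPM in WT skin. All 4 L libraries were above all other skin libraries, with replicate 7 the highest. The log2 difference was 1.80 ± 0.24 against WT skin (SE, adjusted p = 0.000736), a 3.48-fold higher level, and 1.50 ± 0.28 against NL skin (adjusted p = 0.0068). Against NL skin the call was lost without NL replicate 2 (adjusted p = 0.0728). *Lef1*, the sister factor of *Tcf7*, was at 21.4 ± 16.2 CPM (SD, n = 4) in L skin and 0.161 ± 0.0896 CPM in WT skin (n = 3), a log2 difference of 7.05 (adjusted p = 0.000589).

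*Satb1* moved the other way. It was at 16.6, 8.90, 10.3 and 7.37 CPM in L skin, at 39.0 and 44.8 CPM in NL skin and at 40.6, 33.2 and 37.9 CPM in WT skin. The L libraries lay below all other skin libraries, and the NL libraries lay within or above the WT range. *Satb1* was 3.45-fold lower in L than in WT skin, a log2 difference of -1.79 ± 0.25 (SE, adjusted p = 0.000838), and 3.88-fold lower than in NL skin, a log2 difference of -1.96 (adjusted p = 0.00229). Leaving out any of the 9 libraries kept both calls.

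*S1pr1* was at 12.6, 8.21, 19.1 and 15.6 CPM in L skin, at 21.9 and 23.6 CPM in NL skin and at 41.8, 44.3 and 33.8 CPM in WT skin. The groups did not overlap, with NL skin between L and WT skin. The log2 difference of L from WT skin was -1.53 ± 0.25 (SE, adjusted p = 0.00169), a 2.88-fold lower level. Against NL skin it was -0.71 and did not pass (adjusted p = 0.0913), with a 95% interval from -1.34 to -0.08 before adjustment, and it passed without L replicate 6 (adjusted p = 0.039). Blood endothelial genes moved with it. Of 12 such genes 9 were lower and 0 higher in L than in WT skin, beside 20.2% of all genes lower and 23.0% higher. Their median log2 difference was -0.94, and they summed to between 156.9 and 271.3 CPM in L, 276.9 and 352.4 CPM in NL and 345.4 and 460.1 CPM in WT libraries, with no gene of the list at 0. Their part in the difference of *S1pr1* was not tested.

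The residence antigens rose with less certainty than *Cd44*. *Itgae* was at 17.2, 22.5, 14.3 and 8.58 CPM in L skin, at 8.54 and 8.95 CPM in NL skin and at 7.50, 6.81 and 8.58 CPM in WT skin. L replicates 4 to 6 were above every NL and WT library, and replicate 7 lay at the top of the WT range. The log2 difference from WT skin was 1.03 ± 0.29 (SE, adjusted p = 0.0188), and the call was lost without WT replicate 8 (adjusted p = 0.0579) or WT replicate 9 (adjusted p = 0.0711). Against NL skin it was 0.84 and did not pass (adjusted p = 0.0941), but passed without L replicate 7 (adjusted p = 0.0123).

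*Cd69* was at 2.19, 2.17, 3.64 and 1.06 CPM in L skin, at 0.593 and 0.687 CPM in NL skin and at 0.775, 1.21 and 1.01 CPM in WT skin. Replicate 7 again lay within the WT range, and all L libraries were above the NL libraries. The log2 difference from WT skin was 1.18 ± 0.41 (SE, adjusted p = 0.0438) and that from NL skin 1.82 ± 0.49 (adjusted p = 0.0277). The call against WT skin was lost without any library other than L replicate 7, with adjusted p-values up to 0.134, and with all libraries it was lost with no low-count filter (adjusted p = 0.0573) and in a fit of only the compared groups (adjusted p = 0.0738). That against NL skin was lost without either NL replicate (adjusted p = 0.167 and 0.136) and in a fit of only the compared groups (adjusted p = 0.0623).

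*Il7r*, *Klf2* and *Bach2* did not pass in either lesional comparison in edgeR's test, whereas DESeq2 called *Il7r* in both (adjusted p = 0.0307 against WT and 0.0244 against NL skin). *Il7r* was at 17.0, 22.0, 19.4 and 8.22 CPM in L skin and between 7.05 and 11.6 CPM in the other 5 libraries, so only L replicate 7 fell among the NL and WT libraries. Its log2 difference from WT skin was 0.88 ± 0.32 (SE, adjusted p = 0.0541), and without L replicate 7 it was 1.11 (adjusted p = 0.00415). Without that library the log2 difference from NL skin was 1.28 (adjusted p = 0.00888), against 1.05 (adjusted p = 0.0723) with it.

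*Klf2* split the lesions, with 12.3 and 9.23 CPM in L replicates 4 and 5 and 33.3 and 23.4 CPM in replicates 6 and 7, beside 29.0 and 31.2 CPM in NL skin and 38.3, 28.7 and 25.3 CPM in WT skin. The log2 difference from WT skin was -0.65 with a 95% interval from -1.58 to 0.27 (adjusted p = 0.224), and -1.04 without L replicate 6 (adjusted p = 0.0429). *Bach2* was at 5.37, 8.39, 12.3 and 14.5 CPM in L skin, 6.23 and 9.12 CPM in NL skin and 7.00, 7.93 and 6.92 CPM in WT skin. L replicate 4 was the lowest and replicate 7 the highest of the 9 libraries, and the log2 difference from WT skin was 0.48 (adjusted p = 0.258), or 0.69 without replicate 4 (adjusted p = 0.0476).

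**Figure D1:**
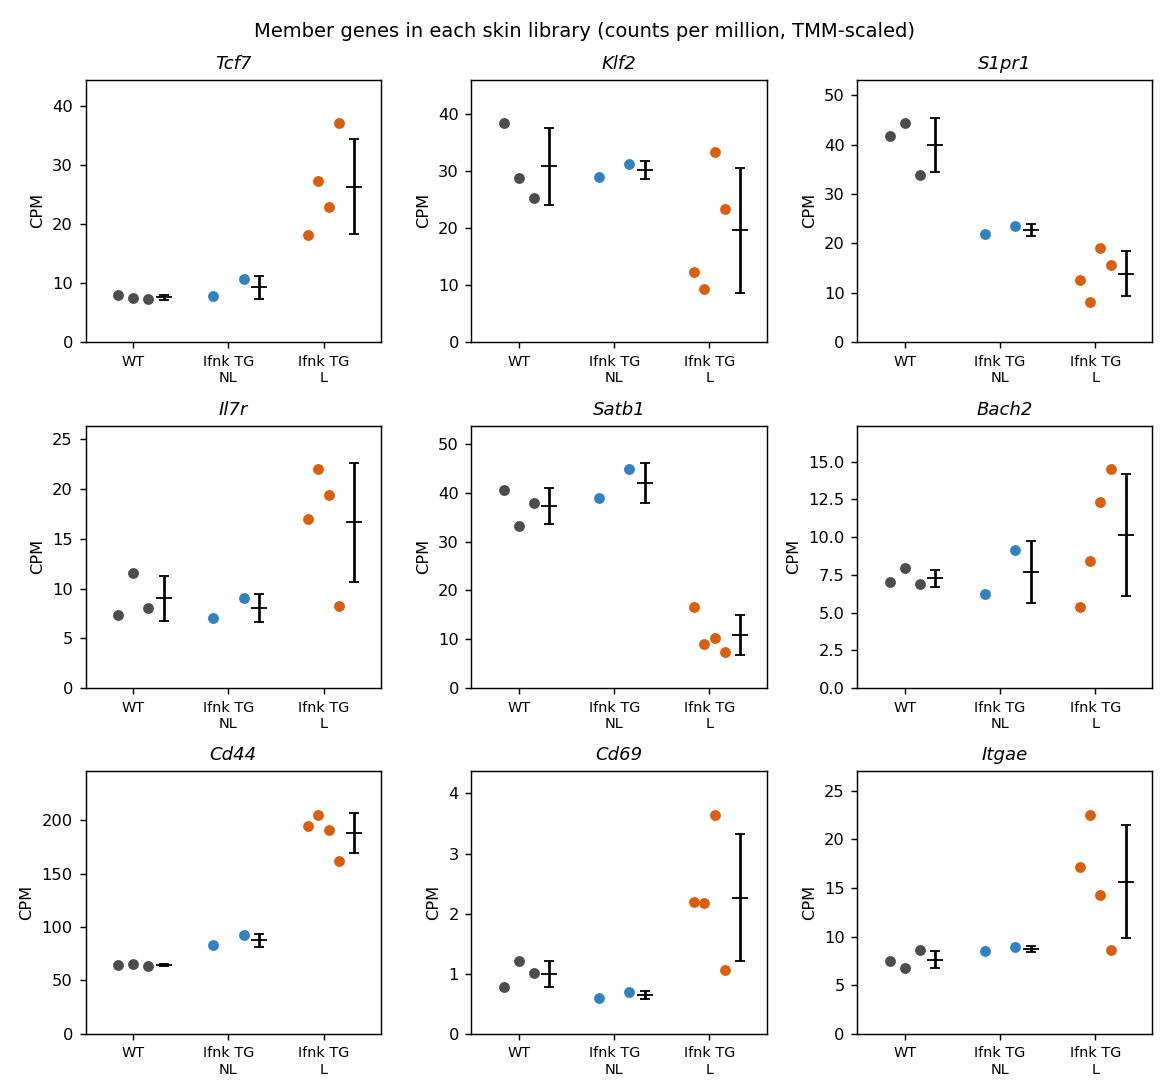
Expression of the 9 members in each skin library, in CPM on linear axes from 0. Points are libraries of WT (n = 3), *Ifnk* TG NL (n = 2) and *Ifnk* TG L (n = 4) skin, and bars are mean ± SD. *Tcf7* and *Cd44* are highest and *Satb1* and *S1pr1* lowest in all 4 L libraries, while 1 L library lies within the WT range for *Il7r* and *Cd69* and reaches it for *Itgae*.

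Against NL skin, 4 of 9 members passed, where 25.0% of all 19101 genes did, with *Tcf7*, *Cd44* and *Cd69* higher and *Satb1* lower, beside 13.2% of all genes higher and 11.8% lower. This comparison shares the L libraries with the comparison against WT skin. The libraries of the groups did not overlap for 5 of 9 members against NL skin and for 4 of 9 against WT skin, where 49.4% of all genes did so in both comparisons. In NL against WT skin 0 of 9 members passed, 0.0% of all genes passed by edgeR, 7.67% had an unadjusted p under 0.05, and DESeq2 called 62 genes, of which 0 were members. *Cd44* was higher in NL than in WT skin by a log2 difference of 0.44 (unadjusted p = 0.00503, adjusted p = 0.503) and *S1pr1* lower, at -0.81 (unadjusted p = 0.0264, adjusted p = 0.605). Their NL libraries did not overlap with WT libraries, and neither did those of *Cd69*, making 3 of 9 members where 35.0% of all genes did not overlap. The remaining 6 members had log2 differences between -0.17 and 0.30.

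Counts of other genes of these programs in L against WT skin are to be read beside the 23.0% of all genes that were higher and the 20.2% that were lower. Of 16 further genes of naive and central memory T cells, 9 were higher and 1 lower in L than in WT skin, with a median log2 difference of 0.68. Besides *Lef1*, the lowest p-values were those of *Actn1*, which codes for an actin crosslinker and had a log2 difference of 0.76 (adjusted p = 0.00043, the lowest of the list), and of *Runx1*, at 1.48 (adjusted p = 0.00098). *Actn1*, *Runx1* and *Lef1* are also expressed outside T cells. Of 16 tested genes of resident memory T cells 6 were higher and 1 lower, led by *Prdm1*, which codes for the repressor BLIMP-1, at 1.59 (adjusted p = 0.000381) and by *Cxcr6*, a chemokine receptor that holds T cells in skin, at 1.88 (adjusted p = 0.00166). *Prdm1* averaged 71.2 CPM in L skin, where all 18 T cell genes together summed to between 64.8 and 153.5 CPM. Which cells carried the *Prdm1* RNA was not tested.

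Around *S1pr1*, 2 of 13 genes of the sphingosine 1-phosphate axis were higher and 1 was lower in L than in WT skin. The receptor *S1pr3* was at 18.0 CPM against 3.54 CPM on average, a log2 difference of 2.34 (adjusted p = 0.000903), and so moved opposite to *S1pr1*. *Plpp3*, which codes for a phosphatase that degrades the ligand outside cells, was lower at -1.14 (adjusted p = 0.00105). Around *Il7r*, 5 of 16 genes of the IL-7 and IL-15 axis were higher and 4 lower, where the median log2 difference was -0.05 beside 0.06 over all genes. The signal transducers *Stat5b* and *Stat5a* were lower at -1.29 (adjusted p = 0.000133) and -0.89 (adjusted p = 0.00196), and *Il2ra*, the α chain of the IL-2 receptor, was higher at 1.54 (adjusted p = 0.00629). Of 19 integrin and hyaluronan partners of *Itgae* and *Cd44*, 6 were higher and 4 lower. Among them were the hyaluronan-binding mitotic protein gene *Hmmr* at 2.52 (adjusted p = 0.000149), the hyaluronan synthase *Has3* at 3.24 (adjusted p = 0.000591) and the integrin *Itgb8*, whose product activates TGF-β, at 2.25 (adjusted p = 0.00218).

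Markers of other cells were compared between L and WT skin, again beside 23.0% of all genes higher and 20.2% lower. Of 18 T cell genes 13 were higher and 0 lower in L than in WT skin, and their sum was between 64.8 and 153.5 CPM in L, 72.9 and 86.2 CPM in NL and 52.4 and 69.1 CPM in WT libraries. L replicate 7, the L library with the lowest *Cd69*, *Itgae* and *Il7r* and the highest *Tcf7* and *Bach2*, had the lowest T cell sum of the L libraries. Of 8 γδ T cell genes 4 were lower and 2 higher, led by *Trdv4*, a variable segment of the epidermal γδ receptor, at 0.321 CPM in L and 3.71 CPM in WT skin (log2 difference -3.51, adjusted p = 9.77e-05), and their sum was between 21.5 and 31.4 CPM in L and 32.7 and 39.8 CPM in WT libraries, with *Trgv5* at 0 in at least 1 L library. Genes of the hair shaft summed to between 2538 and 9759 CPM in L skin and at most 3.09 CPM in other skin, all 10 mitosis genes were higher, and skeletal muscle genes summed to between 31.2 and 9206 CPM in L skin and 34567 and 47553 CPM in WT skin. Keratinocyte genes summed to 8904 CPM in L replicate 7 and to between 19129 and 24917 CPM in the other L libraries. Of the other lists, several of them with shares near or below those of all genes, 1 of 5 NK cell genes and 3 of 9 B cell genes were higher, dendritic and Langerhans cell genes went both ways with 3 of 10 higher and 2 lower, and 1 of 10 macrophage, 2 of 7 lymphatic endothelial, 1 of 8 fibroblast and 4 of 8 adipocyte genes were lower. The part of these differences in those of *Tcf7*, *Satb1*, *Cd44*, *Cd69* and *Itgae* was not tested.

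**Figure D2:**
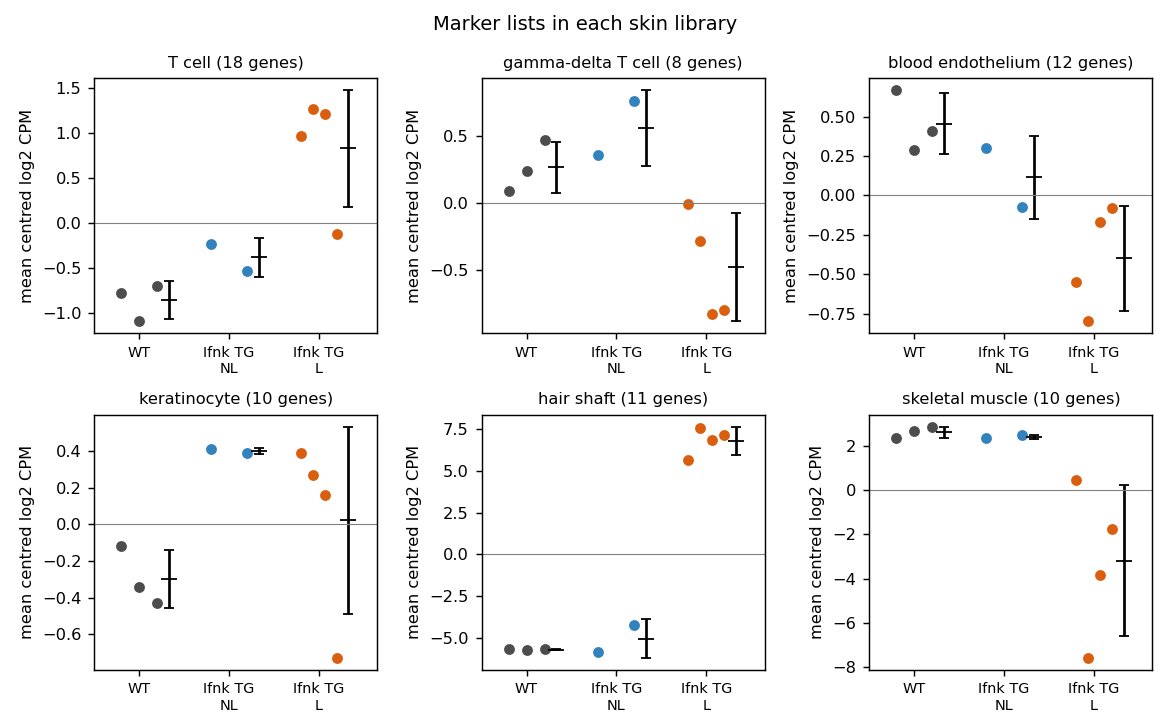
Marker lists in each skin library, as the mean over the genes of a list of log2 CPM after subtracting each gene's mean over the 9 libraries. Points are libraries and bars are mean ± SD of WT (n = 3), NL (n = 2) and L (n = 4) skin. L replicate 7, the rightmost L point, is at -0.12 for T cell genes and -0.73 for keratinocyte genes, below the other 3 L libraries in both.

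To set the members against T cell receptor complex transcripts, the fit was repeated with each library scaled by the geometric mean of its *Cd3d*, *Cd3e* and *Cd3g* counts. On this CD3 scale 4 of 9 members passed between L and WT skin, where 18.0% of all genes did. *Tcf7* and *Cd44* stayed higher, with log2 differences of 1.86 (adjusted p = 0.00111) and 1.46 (adjusted p = 0.00249), and *Satb1* and *S1pr1* lower, at -1.89 (adjusted p = 0.000129) and -1.55 (adjusted p = 0.00284). *Itgae* and *Cd69* were at 0.89 and 0.97 and did not pass (adjusted p = 0.14 and 0.248). Between L and NL skin 3 of 9 members passed, *Tcf7*, *Satb1* and *Cd44*, where 8.98% of all genes did, but 0 passed without NL replicate 2, 1 without NL replicate 3 and 5 without L replicate 7. The 3 CD3 genes themselves did not move together in skin, with log2 differences of L from WT skin of 0.88, -0.46 and -0.12 on the TMM scale and none called, so in skin the scale rests on genes that differ among themselves.

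In lymph nodes UVB was compared with no treatment to ask how the members differ in skin-draining nodes once mice have been irradiated. In WT nodes *Itgae* rose and *S1pr1* fell, and the other 7 members did not pass, so that 2 of 9 members passed where 4.98% of all 16173 genes tested did, 2.92% higher and 2.06% lower. Averaged over both genotypes *Itgae* and *Il7r* rose and *S1pr1* fell, 3 of 9 members where 8.61% of all genes passed, 4.81% higher and 3.8% lower. In *Ifnk* TG nodes alone 0 of 9 members passed in edgeR's test, as did 0.0% of all genes, with 9.32% of genes at an unadjusted p under 0.05, and DESeq2 called 134 genes, 1 of them *Itgae* (adjusted p = 0.0251). These comparisons share libraries.

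*Itgae* was at 60.8, 44.3 and 42.0 CPM in untreated WT nodes and at 98.5, 74.4 and 96.3 CPM in WT nodes after UVB. In *Ifnk* TG nodes it was at 63.7, 55.4 and 44.6 CPM without treatment and at 85.4, 76.3 and 106.8 CPM after UVB. All 6 UVB libraries were above all 6 untreated libraries, whichever the genotype. The log2 difference was 0.87 ± 0.18 in WT nodes (SE, adjusted p = 0.0304), 0.71 in *Ifnk* TG nodes (adjusted p = 0.248) and 0.79 ± 0.13 averaged over genotypes (adjusted p = 0.00971). The averaged difference, 1.73-fold, passed without any of the 12 libraries, whereas the call in WT nodes was lost without WT NoTx replicates 2 or 3 or any WT UVTx replicate, with adjusted p-values from 0.0565 to 0.135.

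*S1pr1* was at 524.7, 504.1 and 649.5 CPM in untreated WT nodes and at 413.9, 389.8 and 421.8 CPM in WT nodes after UVB. In *Ifnk* TG nodes it was at 487.7, 508.0 and 490.9 CPM without treatment and at 466.3, 477.8 and 428.8 CPM after UVB. All UVB libraries lay below all untreated libraries, by a small margin in *Ifnk* TG nodes. The log2 difference was -0.45 ± 0.10 in WT nodes (SE, adjusted p = 0.0318), -0.11 in *Ifnk* TG nodes (adjusted p = 0.765) and -0.28 averaged (adjusted p = 0.0295). The call in WT nodes was lost without WT NoTx replicate 3 (adjusted p = 0.13) or any WT UVTx replicate (adjusted p from 0.0527 to 0.148), and the averaged call was kept without 6 of the 12 libraries. Of 12 blood endothelial genes *Pecam1*, which codes for the adhesion molecule CD31, and *Clec14a* were lower in WT nodes after UVB, where 2.06% of all genes were. The median log2 difference of the list was -1.03, and *Tek*, *Emcn* and *Robo4* were at 0 in at least 1 WT UVTx library. The sum of the list went from between 281.6 and 329.0 CPM to between 200.9 and 238.5 CPM. Most of that sum was *Pecam1*, at 283.8 CPM without treatment and 210.6 CPM after UVB on average, so the sum mainly follows this 1 gene. The part of endothelial RNA in the difference of *S1pr1* was not tested.

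*Il7r* was at 478.9, 430.6 and 564.1 CPM in untreated WT nodes and at 617.5, 951.0 and 746.3 CPM after UVB. In *Ifnk* TG nodes it was at 374.9, 512.2 and 420.7 CPM without treatment and at 459.4, 543.3 and 760.8 CPM after UVB. The groups did not overlap in WT nodes and overlapped in *Ifnk* TG nodes. The log2 difference was 0.65 in WT nodes (adjusted p = 0.0762, and 0.0142 with DESeq2, which called it), 0.43 in *Ifnk* TG nodes (adjusted p = 0.538) and 0.54 ± 0.14 averaged (SE, adjusted p = 0.0384), and the averaged call was lost without any of 8 of the 12 libraries, with adjusted p-values up to 0.0975. *Il7*, the gene of its ligand, which stromal cells make, was at 0.581 CPM after UVB and 2.80 CPM without treatment in WT nodes on average, a log2 difference of -2.25 (adjusted p = 0.0234), and at -2.17 averaged over genotypes (adjusted p = 0.00482).

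The other 6 members did not pass after UVB in either genotype. *Tcf7* was at 1020.7, 989.8 and 1130.3 CPM in untreated WT nodes and at 849.4, 941.1 and 886.1 CPM after UVB, without overlap, and its log2 difference of -0.23 had an adjusted p of 0.169. In *Ifnk* TG nodes it was at 923.3, 910.0 and 928.7 CPM without treatment and at 792.9, 965.3 and 985.3 CPM after UVB, a log2 difference of -0.01. *Cd69* was at 80.0, 85.0 and 79.3 CPM in untreated WT nodes and at 110.9, 115.9 and 88.6 CPM after UVB (log2 difference 0.37, adjusted p = 0.338), and at 78.7, 117.7 and 81.5 CPM and 70.5, 81.9 and 138.3 CPM in *Ifnk* TG nodes (log2 difference 0.07, adjusted p = 0.955). The WT groups of *Cd69* did not overlap and the *Ifnk* TG groups did. *Cd44*, which separated the skin groups most clearly, had means of 110.3 ± 10.9, 111.8 ± 5.04, 110.2 ± 6.09 and 115.3 ± 26.2 CPM (SD, n = 3 each) in WT NoTx, WT UVTx, *Ifnk* TG NoTx and *Ifnk* TG UVTx nodes. Its log2 difference averaged over genotypes was 0.04 with a 95% interval from -0.15 to 0.24. The libraries of *Satb1*, *Klf2* and *Bach2* ranged from 458.1 to 653.1, from 221.4 to 320.9 and from 108.8 to 174.1 CPM over all 4 groups, and these genes had averaged log2 differences of -0.18, -0.16 and 0.15 (adjusted p = 0.141, 0.229 and 0.379). Groups did not overlap for 5 of 9 members in WT nodes, where 37.1% of all genes did not, for 3 of 9 in *Ifnk* TG nodes, where 13.3% did not, and for 2 of 9 between all UVB and all untreated nodes, where 3.52% did not.

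**Figure D3:**
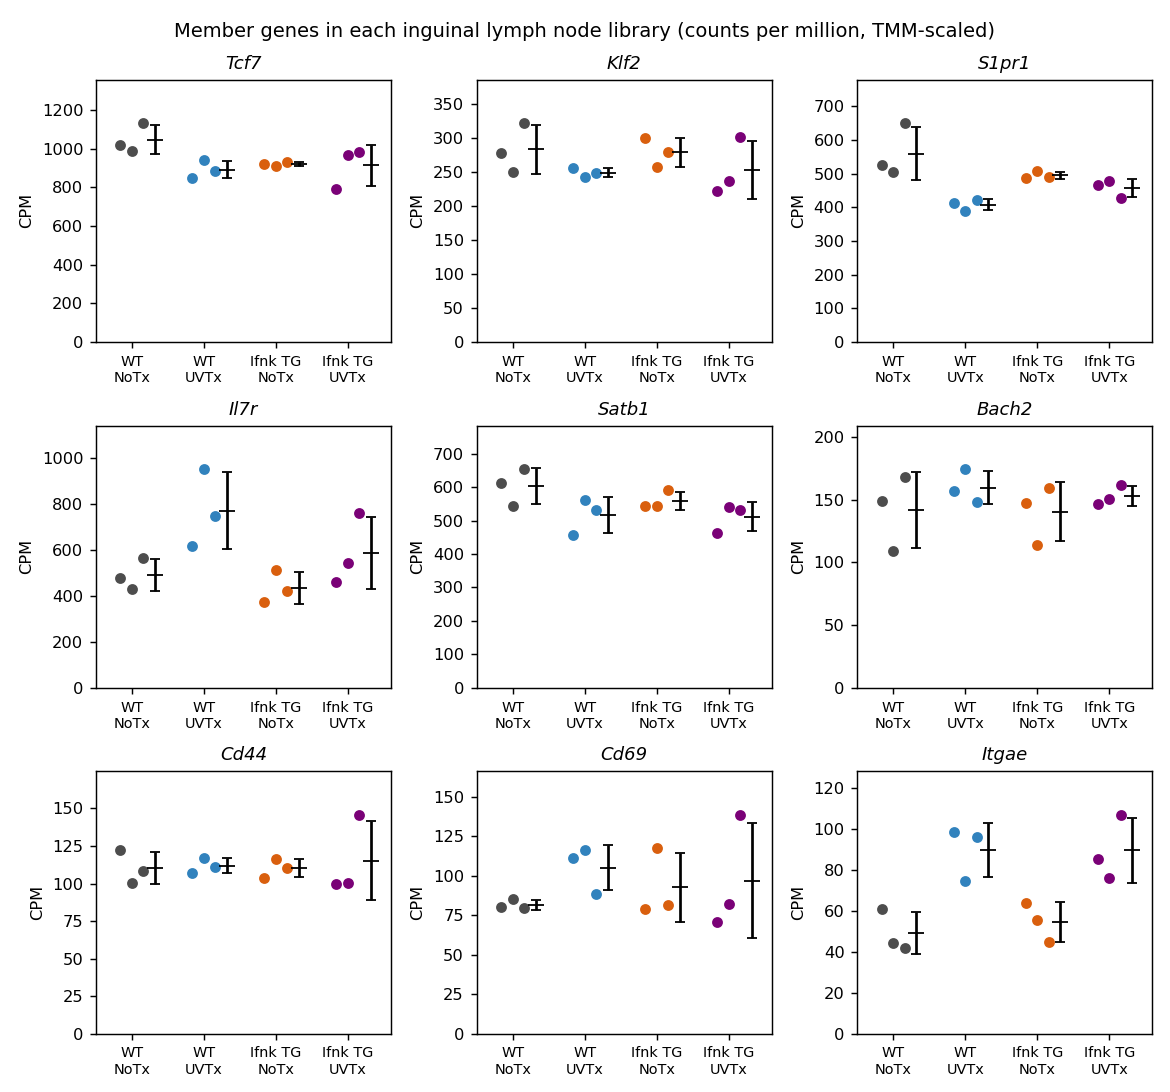
Expression of the 9 members in each inguinal lymph node library, in CPM on linear axes from 0. Points are libraries (3 per group), bars are mean ± SD, NoTx is no treatment and UVTx is UVB. *Itgae* is higher in all 6 UVTx than in all 6 NoTx libraries, while *Cd44* has group means between 110.2 and 115.3 CPM.

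On the CD3 scale *Itgae* was again higher after UVB, with log2 differences of 1.18 in WT nodes (adjusted p = 0.00477) and 0.96 averaged (adjusted p = 0.00276). *Il7r*, at 0.95 and 0.71, and *Cd69*, at 0.68 and 0.39, also passed in both, so that 3 of 9 members passed where 18.7% and 16.9% of all genes did. On this scale the median of all genes was shifted by 0.30 in WT nodes and 0.19 averaged, and 2942 of the 3021 calls in WT nodes were higher, which is 18.2% of all genes, against 472 of 805 on the TMM scale, since the CD3 genes themselves were lower after UVB in each WT UVTx library than in each WT NoTx library. *S1pr1*, at -0.14 and -0.10, did not pass on the CD3 scale.

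**Figure D4:**
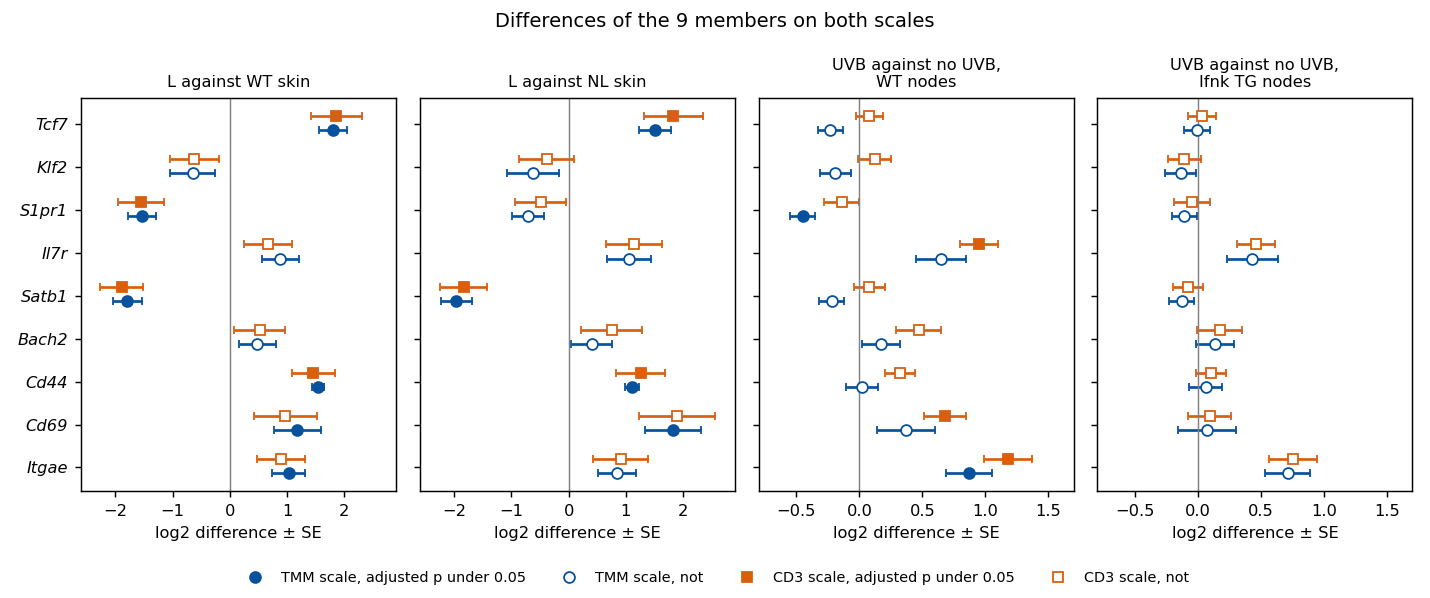
Log2 differences ± SE of the 9 members in 4 comparisons, on the TMM scale (circles) and on the CD3 scale (squares), with filled symbols for an adjusted p under 0.05 in edgeR's test. *Tcf7*, *Satb1* and *Cd44* are filled on both scales in both skin panels, and *Itgae* is the only member filled on both scales in WT nodes.

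The genotypes were compared to ask whether epidermal *Ifnk* alone moves the members in nodes. In untreated nodes, after UVB and averaged over both treatments 0 of 9 members passed, where 0.0%, 0.0% and 0.00618% of all genes did, and unadjusted p was under 0.05 for 0 of 9 members in each, where 3.39%, 6.99% and 4.66% of genes were. DESeq2 also called 0 members. Averaged over treatments the log2 differences of *Ifnk* TG from WT nodes ran from -0.28 for *Il7r* (95% interval -0.59 to 0.02) to 0.07 for *Itgae* (95% interval -0.20 to 0.35). The difference between the genotypes in their response to UVB did not pass for any of the 9 members (adjusted p of 0.848 or more), where 0.0% of all genes passed. It was 0.34 for *S1pr1* (95% interval 0.04 to 0.64, unadjusted p = 0.031, where 5.45% of all genes were under 0.05) and -0.16 for *Itgae* (95% interval -0.71 to 0.39).

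Other genes of the naive and residence programs also differed after UVB in WT nodes. In *Ifnk* TG nodes 0 of 16 genes passed by edgeR in each of the 2 lists, where 0.0% of all genes did. Counts in WT nodes are to be read beside the 2.92% of all genes that were higher and the 2.06% that were lower. In WT nodes 3 of 16 further naive and central memory genes were lower and 1 was higher. The homing receptor *Ccr7* was lower at 349.0 against 471.4 CPM (log2 difference -0.43, adjusted p = 0.0261) and *Runx1* at -0.33 (adjusted p = 0.0439), and *Myb* was higher at 0.70 (adjusted p = 0.0234). Of 16 resident memory genes 3 were higher and 0 lower, namely *Bhlhe40* at 0.61 (adjusted p = 0.0303), *Rgs1*, which codes for a brake on chemokine receptor signaling, at 0.82 (adjusted p = 0.0325), and the aryl hydrocarbon receptor *Ahr* at 0.77 (adjusted p = 0.0343). Of 18 T cell genes 3 were lower and 0 higher, *Trbc2*, *Cd2* and *Cd5*, with log2 differences of -0.46, -0.35 and -0.38, and their sum was between 5753 and 5875 CPM without treatment and between 4658 and 5212 CPM after UVB. In the same comparison the 6 tested erythroid genes had a median log2 difference of -2.99 with 4 lower, and the heat-shock and early response genes *Jun*, *Hspa1a* and *Hspa1b* were higher. After UVB *Jun* was at 16.8 ± 1.83 CPM (SD, n = 3). *Hspa1a* and *Hspa1b* were at 14.6 ± 22.7 and 45.5 ± 67.2 CPM, with an SD above the mean, so their levels were uneven between libraries. Of 10 mitosis genes 1, *Birc5*, was higher in WT nodes, and the list had a median log2 difference of 1.05. Averaged over both genotypes 5 of 10 were higher, where 4.81% of all genes were. In WT nodes 0 of the NK, B, dendritic and lymphatic endothelial cell and macrophage genes passed by edgeR. There 1 of 8 fibroblast and 1 of 2 adipocyte genes were lower. In the averaged comparison the B cell gene *Cr2* was higher at 0.42 (adjusted p = 0.0398) and the lymphatic gene *Reln* at 1.02 (adjusted p = 0.0384). The dendritic cell gene *Ccl22* was lower there at -0.63 (adjusted p = 0.0144), and fibroblast genes were also lower. The part of these in the members' differences was not tested.

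For each member the gene whose centred log2 CPM profile was closest over all libraries of a tissue was looked up, as the smallest root mean square difference. Over the 9 skin libraries *Cd44* was closest to *Vcpkmt* (0.10 log2 units, where the profile of *Cd44* itself had a root mean square of 0.70), *Tcf7* to *Unc5b* (0.13 of 0.86), *S1pr1* to *Dapk1* (0.14 of 0.76) and *Satb1* to *Ppp2r3a* (0.20 of 1.00). *Il7r* was closest to *Spn*, which codes for the leukocyte antigen CD43 (0.15 of 0.60), *Cd69* to *Cd226*, a receptor of T and NK cells (0.21 of 0.80), *Klf2* to *Mmrn2*, an endothelial matrix gene (0.21 of 0.65), *Bach2* to *Bnc2* (0.12 of 0.43) and *Itgae* to *Lgalsl* (0.18 of 0.56). Over the 12 lymph node libraries *Itgae* was closest to *Il1rl1*, which codes for the IL-33 receptor ST2 (0.20 of 0.45), *S1pr1* to *Pecam1* (0.07 of 0.19), *Satb1* to *Actn1* (0.05 of 0.14), *Klf2* to *Gnai2* (0.04 of 0.15) and *Tcf7* to *Crybg1* (0.04 of 0.13). The remaining pairs there were *Il7r* and *Endod1* (0.18 of 0.38), *Bach2* and *Gxylt1* (0.06 of 0.20), *Cd44* and *Golt1b* (0.07 of 0.15), and *Cd69* and *Pros1* (0.14 of 0.29). These pairs are descriptions over libraries that share groups and depth.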

How the data were processed

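RNA of skin and inguinal lymph nodes was sequenced by the authors as poly-A libraries. Per the labels and the submitters' processing notes, reads were trimmed with cutadapt 4.8, aligned to GRCm38 with STAR 2.7.8a and counted with RSEM 1.3.3. The deposited values are RSEM expected counts per gene, given as whole numbers without normalization, and the annotation release is not given in the sources used here. All 21 value columns were mapped to samples by number, and 4 rows for Cre and fluorescent proteins, listed at 0 in every library, were left out. Positions and transcript lengths came from GENCODE M21 by Ensembl identifier, which matched 55141 of 55487 genes.

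Low genes were removed with edgeR 4.0.16 (filterByExpr, minimum count 10, total 15), and the rest were scaled by TMM and fitted by group with the robust quasi-likelihood F-test in R 4.3.3, each tissue in a fit of its own. P-values were adjusted by Benjamini-Hochberg across the tested genes of a tissue with a threshold of 0.05, and SEs were derived from the F statistic. The members and the gene lists were chosen with earlier results of these data known. All 9 members were to be given in every comparison, and of a list at most the 3 genes with the lowest p among those that passed. Further marker lists (NK, B and dendritic cells, macrophages, lymphatic endothelium, fibroblasts, adipocytes) were run, and 246 of 248 list genes were matched. Nearest profiles were sought among genes with a mean of at least 1 CPM, using log2 CPM with a prior count of 2. The steps were tested on simulated counts. Alternatives were DESeq2 1.42.0, RLE and upper-quartile scaling, other filters, a fit of only the compared groups, no robust estimation, skeletal muscle, hair and adipocyte genes (skin) or erythroid and immunoglobulin genes (nodes) left out before scaling, 10 T cell genes as reference and each library left out.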

Additional observations from a re-analysis of the deposited data

How the results depend on the processing

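For the members that passed in skin and nodes the direction was the same in all alternatives that did not scale libraries by T cell genes. For alternatives scaled by T cell genes only the count of members that passed was followed. The count of members that passed, 6 in L against WT skin, was between 4 and 7 without 1 library. In L against NL skin it was 4, and between 2 and 6 without 1 library (2 without NL replicate 2), and on the CD3 scale 3, and between 0 and 5. For UVB in WT nodes the count was 2 in the main setting, 4 in a fit of only the compared groups, which added *Il7r* (adjusted p = 0.0184) and *Cd69* (adjusted p = 0.0323), and between 0 and 3 without 1 library. It was 0 without WT NoTx replicate 3 or without any of WT UVTx replicates 7 to 9. For UVB averaged over both genotypes it was 3, and between 1 and 4 without 1 library, with 1 without WT NoTx replicate 3, *Ifnk* TG NoTx replicates 4 or 6 or WT UVTx replicates 8 or 9, and 4 without *Ifnk* TG UVTx replicate 12, where *Klf2* passed at -0.25 (adjusted p = 0.0208). DESeq2 called 7 members in L against WT skin, 5 in L against NL skin and 3 for UVB in WT nodes, adding *Il7r* in each. The averaged call of *Il7r* was also lost with no low-count filter (adjusted p = 0.082). For UVB in *Ifnk* TG nodes the count was 0, and 1 with DESeq2. The cause of these changes was not tested. Over all genes tested, UVB in WT nodes gave 805 genes, 0 without WT UVTx replicate 8, 7 without WT NoTx replicate 3 and 2644 without *Ifnk* TG UVTx replicate 12, 1972 with DESeq2 and 2431 in a fit of only the compared groups. L against NL skin gave 4782 genes, 3156 in a fit of only the compared groups and 1182 without NL replicate 3, where the lone NL library is assumed to vary like the other groups. UVB averaged over genotypes gave 1393 genes, 2406 with DESeq2 and between 373 and 3790 without 1 library (without WT UVTx replicate 8 and *Ifnk* TG UVTx replicate 12). DESeq2 called 62 genes in NL against WT skin and 134 for UVB in *Ifnk* TG nodes, where edgeR called 0, and between 2 and 21 in the genotype comparisons and the interaction, where edgeR called 0 or 1.

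Values near 0 that changed sign had not passed in any setting. *Cd44* for UVB in WT nodes was 0.02 and, with upper-quartile scaling, -0.00. Without 1 library it was between -0.04 and 0.07, for UVB in *Ifnk* TG nodes between -0.16 and 0.16, and averaged between -0.08 and 0.08. For UVB in *Ifnk* TG nodes *Tcf7* was between -0.08 and 0.09, *Bach2* between -0.01 and 0.22 and *Cd69* between -0.30 and 0.27. For NL against WT skin *Klf2* was between -0.16 and 0.15, *Il7r* between -0.38 and 0.05 and *Bach2* between -0.25 and 0.32. No paired analysis was possible because the groups of a tissue share no library number in the labels. Only the members' values printed in the report, other than those on the CD3 scale, were followed through the alternatives one by one. *Cd69* in skin, with 28 to 165 counts in a library, is the member whose precision is most limited by depth.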
